A study of Mus musculus with 12 samples.

Results

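The effect of Bach1 silencing on transcripts of C2C12, a myoblast line from C3H mouse muscle, was compared between the start of differentiation and day 2, and the probes whose silencing effect differed between the days were taken as the members of the set described here. For each probe the difference between siBach1 and siControl cells at day 2, minus the same difference at day 0, was tested with limma on log2 signals. A probe was a member where the adjusted p was under 0.05 and this difference, called the day dependence below, was at least 1 in size. Of 29664 probes tested, 427 were members (1.44%), and they named 355 genes of 15773. From day 0 to day 2 the effect shifted upward for 291 of them (0.981%) and downward for 136 (0.458%).

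C2C12 is a line of muscle precursor cells that grows in serum and fuses into myotubes once it is confluent and the serum is reduced. The cells had received a stealth siRNA against Bach1 (siBach1) or a negative control siRNA (siControl) with Lipofectamine RNAiMAX. RNA was taken at confluence (day 0) or after 2 days in medium with horse serum (day 2). The paper names a single Bach1 sequence, siBach1-2, for the arrays. Loss of Bach1 and other effects of that siRNA therefore cannot be told apart here. Each of the 4 conditions had 3 replicates, and each RNA was hybridized to its own one-colour array, which gives 12 arrays. All groups share the transfection, and the controls carry an siRNA too. The labels do not say whether replicates came from separate cultures, so the p-values measure the spread between these samples, and the number of arrays limits the precision. Replicates 1 and 2 lay on 1 slide and replicate 3 on another, and every condition kept its own column of positions on the slides, so that position and condition cannot be told apart. Each array had between 26921 and 33313 probes well above background by the scanner's own flag. The samples are bulk RNA, in which fewer cells of a type and less RNA per cell cannot be told apart.

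Bach1, a basic leucine zipper protein, is a repressor at Maf recognition elements, where a small Maf protein is its partner. These elements overlap with the antioxidant response elements used by Nrf2. Haem releases Bach1 from DNA, and haem oxygenase, ferritin, globin and glutathione genes are among its known targets. In muscle cells, leaving the cell cycle at the start of differentiation is followed by the rise of the myogenic regulators and then of the contractile and calcium-handling proteins.

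The lowering of the Bach1 transcript was similar at both days, and its protein was not measured on these arrays. In siControl cells Bach1 was at 1.73, 1.55 and 1.78 on the 3 arrays of day 0 and at 2.56, 2.55 and 2.58 on those of day 2, as log2 signal relative to each array's 75th percentile, the scale of all levels below. In siBach1 cells it was at 0.18, -0.22 and -0.22 and at 0.57, 0.56 and 0.65. Every siBach1 array was below every siControl array of the same day, and in both siRNAs the day 2 arrays were above those of day 0. The silencing effect was -1.77 at day 0 and -1.97 at day 2, and the day dependence was -0.19 (95% limits -0.55 to 0.16, limma adjusted p = 0.55), which did not pass the test. Hmox1, the haem oxygenase gene that Bach1 represses, was at 3.46, 3.30 and 3.76 in siControl cells at day 0, at 6.66, 6.74 and 7.02 in siBach1 cells at day 0, and at 2.93, 3.17 and 2.82 and 6.12, 6.0 and 6.18 in the same order at day 2. Its siBach1 arrays stood far above its siControl arrays at each day, by 3.30 and 3.12, and its day dependence was -0.18 (95% limits -0.63 to 0.28, limma adjusted p = 0.69). Another Hmox1 probe was well above background only on 2 arrays of siBach1 cells at day 2 and was not tested. Bach1 and its best known target were therefore not members.

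The members were sorted by the larger in size of their changes from day 0 to day 2 in the siRNA groups. Rises blunted were 92 probes of 78 genes whose larger change was a rise in siControl cells. Rises enhanced, 169 probes of 144 genes, had their larger change as a rise in siBach1 cells. Falls blunted were 122 probes of 97 genes with the larger change a fall in siControl cells, and falls enhanced 44 probes of 36 genes with the larger change a fall in siBach1 cells. Of all tested probes, 20% changed between the days in siControl cells and 20.5% in siBach1 cells by the same limits. The day changes of 166 members had opposite signs in the siRNAs, 22 among rises blunted, 60 among rises enhanced, 62 among falls blunted and 22 among falls enhanced. For 86 members the larger day change was not itself past the limits. The classes use the same 12 arrays as the day dependence, so the values below describe the members and support nothing further.

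**Figure D1:**
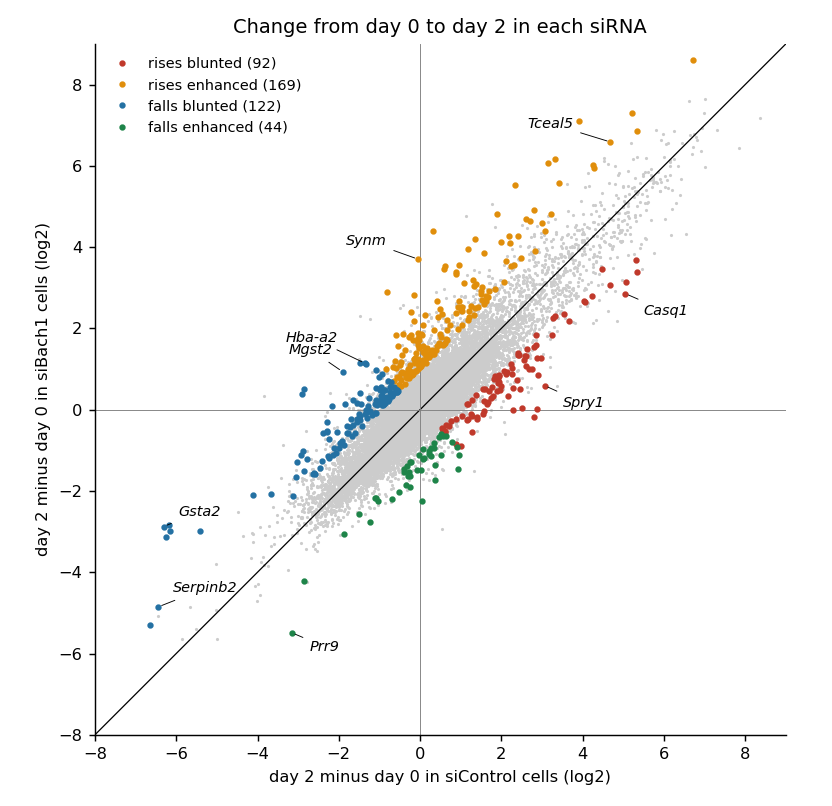
Change from day 0 to day 2 (log2) in siControl cells on the x axis and in siBach1 cells on the y axis for each of the 29664 tested probes, with the 427 members in colour by class and the other probes in grey. Points on the diagonal changed equally in both siRNAs, and the members lie at least 1 unit above it (291) or below it (136).

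The day at which silencing was called is given for each class, as counts without a test between classes. Over all tested probes, 2.79% were called for silencing at day 0 and 2.17% at day 2. Among rises blunted, 31 members were called at day 0 only, 24 at day 2 only, 2 at both days and 35 at neither. Their median silencing effect was 0.76 at day 0 and -0.65 at day 2. Among rises enhanced, 54 were called at day 0 only, 81 at day 2 only, 4 at both and 30 at neither, with medians of -0.56 and 0.96. Among falls blunted the counts were 59, 28, 11 and 24 in the same order, with medians of -1.08 and 0.24. Among falls enhanced they were 13, 9, 1 and 21, with medians of 0.92 and -0.57. Among the 277 members well above background on every array, those called at day 0 only outnumbered those called at day 2 only in each class, by 24 to 10, 36 to 33, 46 to 15 and 9 to 6 in the order above. For rises enhanced this is the reverse of the order over all members. The silencing effect had opposite signs at the days for 248 of the 427 members, and it was past the limits in opposite directions at both days for 2. The median day change was 1.98 in siControl and 0.67 in siBach1 cells for rises blunted, and 0.34 and 1.87 for rises enhanced. It was -1.39 and 0.09 for falls blunted, and -0.00 and -1.42 for falls enhanced.

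**Figure D2:**
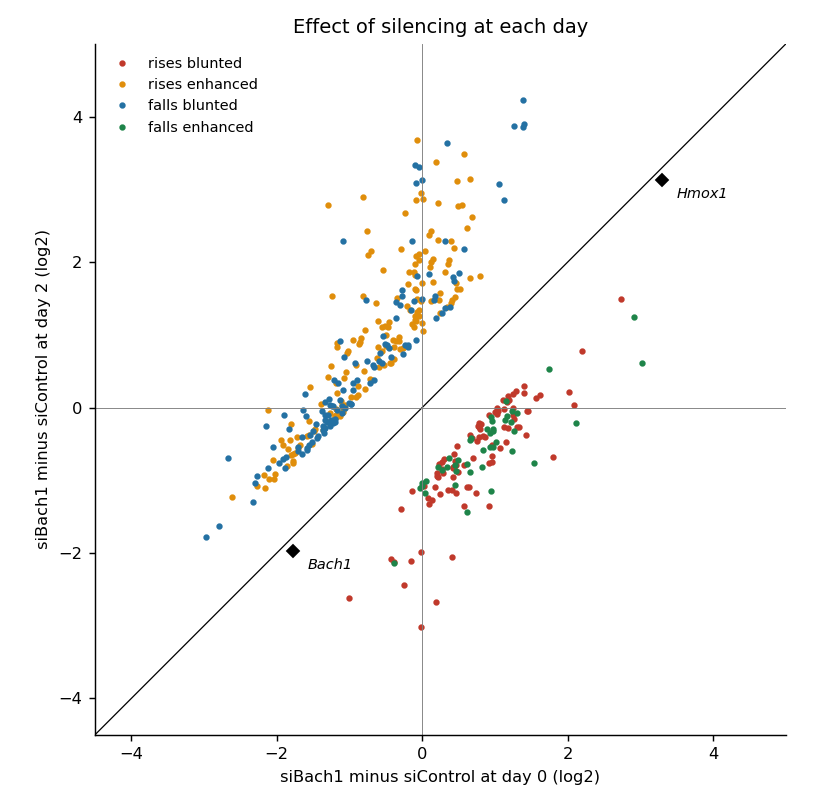
Silencing effect, siBach1 minus siControl (log2), at day 0 on the x axis and at day 2 on the y axis for the 427 members, coloured by class, with Bach1 and Hmox1 as black diamonds. The diamonds lie close to the diagonal of equal effects, and the members lie at least 1 unit away from it.

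Among falls blunted with a gene name that stood well above background throughout the 12 arrays, glutathione transferase genes and the alpha globins held the largest differences, while 2 probes without a gene name were at 3.17 and 3.13. Gsta2, a transferase that joins glutathione to electrophiles, was at 4.13, 4.34 and 3.78 in siControl and at 3.81, 4.37 and 3.79 in siBach1 cells at day 0. At day 2 it was at -2.28, -2.01 and -2.38 in siControl and at 0.85, 1.42 and 1.08 in siBach1 cells. The siRNAs overlapped at day 0, while at day 2 all siBach1 arrays were above all siControl arrays, and in both siRNAs every day 2 array was below every day 0 array. The fall was -6.31 in siControl and -2.87 in siBach1 cells, a day dependence of 3.43 (standard error 0.29, limma adjusted p = 0.0016), positive in each of the 3 replicate sets. Gsta2 has near-identical copies, so the probe may read more than 1 gene. Gm10639, a related gene named here after its values were seen, fell by 6.18 with siControl and fell by 2.83 with siBach1, with a day dependence of 3.35 (limma adjusted p = 0.000841). Gsta4, another alpha-class transferase, was lower at day 2 in both siRNAs, by -3.14 in siControl and -2.14 in siBach1 cells, and its day dependence of 1.00 (limma adjusted p = 0.016) lay just past the size limit.

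Mgst2, a membrane-bound glutathione transferase that can also make leukotriene C4, differed from Gsta2 in its level at day 0. It was at 2.13, 2.28 and 1.91 in siControl and at 3.35, 3.67 and 3.45 in siBach1 cells at day 0, so that silencing already separated the arrays. At day 2 it was at 0.30, 0.71 and -0.41 in siControl and at 4.38, 4.65 and 4.25 in siBach1 cells. The day change was -1.91 in siControl and 0.94 in siBach1 cells, opposite in sign, and the class is named after the larger change. The silencing effect went from 1.39 at day 0 to 4.23 at day 2, a day dependence of 2.84 (standard error 0.34, limma adjusted p = 0.005). Across the list of glutathione S-transferases, 3 of 23 tested genes were called more positive and 0 more negative, the latter against 6 more negative at an unadjusted p under 0.05 in limma. Gsta2 and Mgst2, both among those called, were given markers of this set, so the count adds no support. The median day dependence of the list was -0.04, beside -0.07 over all 15773 genes, where 185 were called more positive and 90 more negative (1.74%). Gstk1, a transferase outside the named genes, had a day dependence of -1.31 (limma adjusted p = 0.0757).

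The alpha globin genes had the same form as Mgst2. Hba-a2 was at 2.25, 2.23 and 2.23 in siControl cells at day 0, at 3.65, 3.63 and 3.62 in siBach1 cells at day 0, at 0.84, 0.61 and 1.20 in siControl cells at day 2 and at 4.64, 4.95 and 4.75 in siBach1 cells at day 2. No arrays of different conditions overlapped, and the order from low to high was day 2 and then day 0 of siControl cells, followed by day 0 and then day 2 of siBach1 cells. Its day dependence was 2.50 (standard error 0.19, limma adjusted p = 0.00084), from a silencing effect of 1.40 at day 0 and 3.90 at day 2. The probes for Hba-a1 gave 2.61 and 2.47, but these genes are near-identical copies and their probes cannot be taken as independent. Of 6 tested globin and erythroid genes 2 were called more positive and 0 more negative (33.3%, against 1.74% of all genes). The 2 called were Hba-a1 and Hba-a2, so this share counts near-identical copies separately, and 3 of the 6 genes had differences below 0. There were 0 more negative also at an unadjusted p under 0.05 in limma. The median was 0.35, with a range over the alternatives from -0.10 to 0.75. The antioxidant and haem list held 32 tested genes, of which 0 were called in limma and 8 passed an unadjusted p under 0.05, with a median of -0.02. Over all 15773 genes 3879 passed an unadjusted p under 0.05, 1628 of them more positive and 2251 more negative, against which the unadjusted counts of this and the other lists can be read. Its largest value was that of Aox1, aldehyde oxidase, at 1.00 (limma adjusted p = 0.0313), just under the size limit. Fech, the last enzyme of haem synthesis, was at 0.89 (limma adjusted p = 0.0103).

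**Figure D3:**
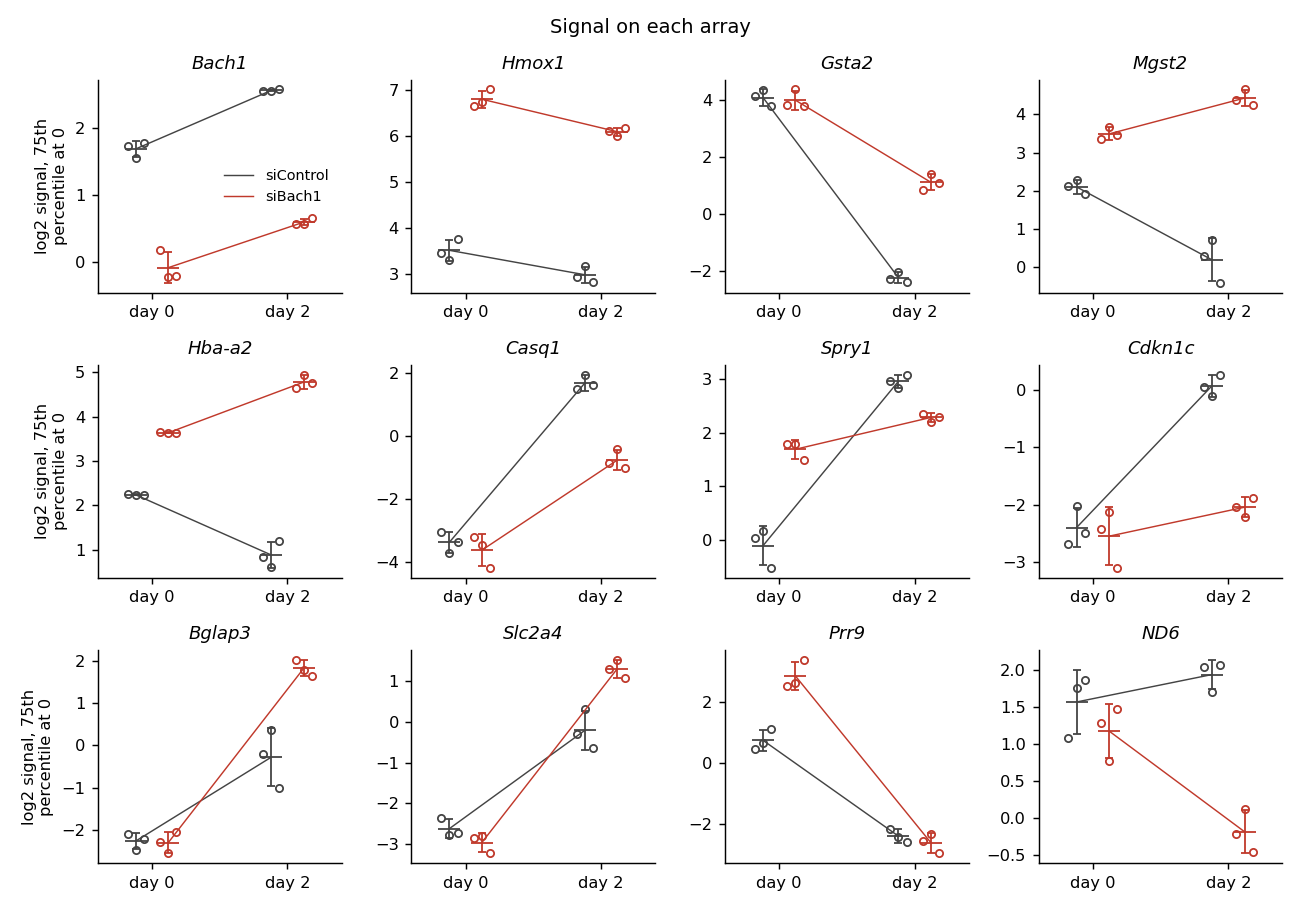
Log2 level, with the 75th percentile of each array as 0, on each of the 12 arrays for 12 genes, with siControl in grey and siBach1 in red, open circles for single arrays, crossbars for the mean and standard deviation of 3 replicates, and lines joining the means of day 0 and day 2. Lines are near parallel for Bach1 and Hmox1, while those of the other genes differ in slope between the siRNAs.

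The promoter of Mgst2 is given because it held a motif match. It was taken from RefSeq promoters of build GRCm38.p6, from 250 bases before to 50 after the start, and lies at chr3:51660929-51661228 on the plus strand. The capitals mark an AP-1 core, TGACTCA, that starts 52 bases before the start of the gene.

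Mgst2: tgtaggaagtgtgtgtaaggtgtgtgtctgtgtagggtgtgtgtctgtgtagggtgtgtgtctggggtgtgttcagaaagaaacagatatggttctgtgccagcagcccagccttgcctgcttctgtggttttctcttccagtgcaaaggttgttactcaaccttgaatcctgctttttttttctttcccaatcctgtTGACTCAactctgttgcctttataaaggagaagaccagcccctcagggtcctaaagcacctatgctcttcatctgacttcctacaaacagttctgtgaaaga

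The motifs searched on both strands were TGACNNNGC for the antioxidant response element core, TGACTCAGC for the Maf recognition element core, which also matches the antioxidant response element core and AP-1 core, TGACTCA for the AP-1 core, and CAGCTG for an E-box, which is its own reverse complement. The antioxidant response element core was present for 14% of all 27025 genes with a promoter in the table and for 16.4% of the 11758 tested genes with one. It was found for 14 of 57 genes among rises blunted (24.6%), 17 of 105 among rises enhanced (16.2%), 12 of 78 among falls blunted (15.4%) and 7 of 29 among falls enhanced (24.1%). The Maf recognition element core was found for 0.503% of all genes, 0.561% of tested genes and 0 genes in each class. An AP-1 core was present for 5.95% of all and 4.95% of tested genes, for 7.02% of rises blunted, 10.5% of rises enhanced, 5.13% of falls blunted and 6.9% of falls enhanced. An E-box was present for 18.3% of all and 18.4% of tested genes, for 28.1% of rises blunted, 28.6% of rises enhanced, 12.8% of falls blunted and 24.1% of falls enhanced. A match is a description of letters in this window, no test was run on these shares, and a missing match says only that the letters are not in the window. Gsta2 had no match to any of the motifs.

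Stmn4 and Fyb2 completed the falls blunted with the largest differences. Stmn4, a stathmin-family protein that binds tubulin, was at 4.36, 4.37 and 4.36 in siControl and at 1.84, 1.83 and 1.40 in siBach1 cells at day 0, and at 2.43, 1.81 and 3.28 and 1.77, 1.57 and 2.12 at day 2. The siControl arrays of day 0 were above all other arrays, while the siRNAs overlapped at day 2, and the day dependence was 1.99 (limma adjusted p = 0.032), a call kept in only 3 of 12 fits with 1 array left out. Here the blunted fall reflects a lower level at day 0, with a silencing effect of -2.67 there and -0.69 at day 2. Fyb2, an adaptor protein, showed the opposite order, with -1.25, -1.34 and -1.03 in siControl and -0.75, -1.08 and -0.85 in siBach1 cells at day 0, followed by -3.45, -3.83 and -3.18 and -1.26, -1.38 and -0.93 at day 2. Its siRNAs overlapped at day 0 and separated at day 2, and the day dependence was 1.98 (limma adjusted p = 0.006), although it was 0.84 in its lowest alternative, under the size limit.

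The falls blunted also held probes of genes in the cell cycle, adhesion and blood cell lists. Cdc45, a part of the replicative helicase, was at 0.83, 0.79 and 0.82 in siControl and 0.47, 0.18 and 0.13 in siBach1 cells at day 0, and at -1.03, -1.44 and -0.88 and -0.46, -0.69 and -0.37 at day 2. It was lower with silencing at day 0 and higher with it at day 2 on every array, and its day dependence was 1.16 (limma adjusted p = 0.018). The other Cdc45 probe gave 0.51 (limma adjusted p = 0.161). Of the 52 tested cell cycle genes, Cdc45 alone was called (1.92%, against 1.74% of all genes), 0 were called more negative, 5 passed an unadjusted p under 0.05 in limma, and the median was 0.09. Over the alternatives that median ranged from -0.16 to 0.24. Jam2, an adhesion protein of myoblasts, had a day dependence of 1.06 on 1 probe (limma adjusted p = 0.02), from a silencing effect of -1.34 at day 0, but -0.06 on its other probe. Cd68, a lysosomal protein of macrophages, had a day dependence of 1.29 on a probe that was well above background on 8 of 12 arrays, and 0.64 (limma adjusted p = 0.054) on a probe measured on all of them.

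Among the rises blunted, Casq1, calsequestrin, which stores calcium in the sarcoplasmic reticulum of fast fibres, was at -3.04, -3.72 and -3.35 in siControl and at -3.20, -3.47 and -4.19 in siBach1 cells at day 0, where it was well above background on 2 of 3 siBach1 arrays. At day 2 it was at 1.48, 1.95 and 1.61 in siControl and at -0.84, -0.42 and -1.03 in siBach1 cells. The siRNAs overlapped at day 0, and at day 2 every siBach1 array was below every siControl array. Casq1 rose by 5.05 in siControl and by 2.86 in siBach1 cells, a day dependence of -2.19 (standard error 0.38, limma adjusted p = 0.016), negative in all 3 replicate sets. Pvalb, the calcium-binding protein parvalbumin, rose by 2.64 in siControl and 1.5 in siBach1 cells, with a day dependence of -1.14 (limma adjusted p = 0.015). Both belong to the excitation-contraction coupling list, which was written with earlier results of these data known and holds Casq1 as a given marker. Of its 33 tested genes 2 were called more negative and 0 more positive (6.06%, against 1.74% of all genes). At an unadjusted p under 0.05 in limma 9 were more negative and 5 more positive. That list had a median of -0.13. Sln, sarcolipin, an inhibitor of the calcium pump, had the value farthest from 0 in it at 3.30, with a limma adjusted p of 0.0561 that did not pass.

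Pdlim3, an actin-associated protein of the Z-disc, was called from the sarcomere list. It was at 4.66, 4.48 and 4.33 in siControl and 5.52, 5.56 and 5.28 in siBach1 cells at day 0, and at 6.41, 6.54 and 6.42 and 5.90, 6.01 and 5.89 at day 2. All siBach1 arrays were above the siControl arrays at day 0 and below them at day 2, with a day dependence of -1.48 (standard error 0.15, limma adjusted p = 0.0029). The other Pdlim3 probe gave -1.02 (limma adjusted p = 0.0572). Its promoter, at chr8:45885237-45885536 on the plus strand, is printed since it held both an E-box, 139 bases before the start, and an antioxidant response element core, 123 bases before it, which the capitals mark.

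Pdlim3: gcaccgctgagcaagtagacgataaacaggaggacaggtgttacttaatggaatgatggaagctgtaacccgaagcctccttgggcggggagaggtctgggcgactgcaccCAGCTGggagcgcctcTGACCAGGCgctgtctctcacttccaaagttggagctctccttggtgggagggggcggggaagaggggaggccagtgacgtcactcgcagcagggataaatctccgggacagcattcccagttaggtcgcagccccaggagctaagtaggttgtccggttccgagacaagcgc

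Of the 55 tested sarcomere genes, Pdlim3 alone was called more negative and 0 were called more positive (1.82%, against 1.74% of all genes). By the unadjusted p under 0.05 in limma, 13 were more negative and 0 more positive. The differences of 39 genes were below 0, as were 9197 of all 15773, the median was -0.28, and it stayed below 0 in all alternatives, at -0.43 to -0.16. The median day change of these genes was 4.42 in siControl and 4.01 in siBach1 cells. Actn2 and Myl2, Z-disc and myosin light chain proteins, had values of -1.22 (limma adjusted p = 0.0851) and -1.41 (limma adjusted p = 0.164).

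Spry1, an inhibitor of growth factor receptor signalling, had the largest difference among rises blunted that were measured on all arrays. It was at 0.03, 0.17 and -0.53 in siControl and at 1.79, 1.80 and 1.48 in siBach1 cells at day 0, and at 2.95, 2.83 and 3.08 and 2.35, 2.20 and 2.30 at day 2. The siBach1 arrays were above the siControl arrays at day 0 and below them at day 2. From a silencing effect of 1.80 at day 0 and -0.67 at day 2, the day dependence was -2.47 (standard error 0.24, limma adjusted p = 0.0021). Cdkn1c, the cyclin-dependent kinase inhibitor p57, was at -2.68, -2.03 and -2.49 in siControl and -2.42, -2.13 and -3.11 in siBach1 cells at day 0, and at 0.06, -0.11 and 0.27 and -2.04, -2.22 and -1.88 at day 2. Only the siControl arrays of day 2 stood apart from the rest, with a rise of 2.47 in siControl cells against 0.51 in siBach1 cells, where the days overlapped. The day dependence of Cdkn1c was -1.96 (limma adjusted p = 0.016).

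Igfbp3, which binds insulin-like growth factors outside the cell, was at -0.63, -0.78 and -0.68 in siControl and 0.71, 0.90 and 0.57 in siBach1 cells at day 0, and at 0.56, 0.23 and 0.93 and 0.18, 0.13 and 0.26 at day 2. It was higher with silencing at day 0 without overlap, and the siRNAs overlapped at day 2. It rose by 1.27 in siControl cells and changed by -0.54 in siBach1 cells, a day dependence of -1.81 (limma adjusted p = 0.0052). Pstpip1, a cytoskeletal adaptor, had a day dependence of -1.75 (limma adjusted p = 0.0046), with 0.65 at day 0 and -1.10 at day 2, but its other probe gave -0.19. C5ar2, a complement receptor, was at -2.72, -2.63 and -2.78 in siControl and -2.31, -1.77 and -2.18 in siBach1 cells at day 0 and at -2.22, -1.46 and -1.82 and -3.28, -2.88 and -2.61 at day 2. Its siRNA groups exchanged their order between the days, and the day dependence was -1.71 (limma adjusted p = 0.018). Tspan33, a tetraspanin of the adhesion and fusion list, had -1.70 (limma adjusted p = 0.016) on 1 probe and -0.09 on the other.

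Sox8, a transcription factor of the Sox family that is expressed in myoblasts, was at -3.53, -3.26 and -4.55 in siControl cells at day 0, with 2 of 3 arrays well above background, and at -2.58, -2.69 and -3.29 in siBach1 cells. At day 2 it was at -1.22, -1.98 and -1.29 in siControl and -2.89, -2.98 and -2.69 in siBach1 cells, where the groups did not overlap. It rose by 2.28 in siControl cells and changed by 0.00 in siBach1 cells, a day dependence of -2.28 (limma adjusted p = 0.026), against -1.60 (limma adjusted p = 0.201) on its other probe. That call was kept in 6 of 12 fits with 1 array left out, and its difference was smallest in size at -1.26 among the settings. Sox8 and Cdkn1c were the called genes among 39 tested myogenic regulators (5.13%, against 1.74% of all genes), and 0 were called more positive. Among them 13 were more negative and 3 more positive at an unadjusted p under 0.05 in limma. The median of the regulators was -0.23 and ranged from -0.29 to -0.18 over the alternatives. Myog, a myogenic regulator needed for differentiation, rose by 4.85 in siControl and by 3.77 in siBach1 cells, but its day dependence of -1.08 did not pass (limma adjusted p = 0.071). Myod1 was at -0.61 (limma adjusted p = 0.0834). In the adhesion and fusion list 0 of 30 genes were called in limma on the brightest probe of each, 8 passed an unadjusted p under 0.05, and the median was -0.12, while the Tspan33 and Jam2 calls above are on dimmer probes. Mymk, which drives the fusion of myoblasts, was at -0.76 (limma adjusted p = 0.0636), and Cdh15, a cadherin of myoblasts, at -0.71 (limma adjusted p = 0.0141), under the size limit.

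Markers of muscle were summed on each array. Their summed linear signal, relative to the 75th percentile, was between 137 and 148 on the siControl arrays of day 0, between 152 and 170 on the siBach1 arrays of day 0, between 1441 and 1490 on the siControl arrays of day 2 and between 934 and 1078 on the siBach1 arrays of day 2. The siBach1 sums lay above the siControl sums at day 0 and below them at day 2, without overlap at either day. The muscle list had a median day dependence of -0.62 over 10 tested genes, 9 of them below 0. Casq1 was called more negative and 0 genes were called more positive in limma (10%, against 1.74% of all genes). Casq1 was a given marker of this set, and the list was written with earlier results of these data known, so that share adds no support. An unadjusted limma p under 0.05 was reached by 6 more negative and 0 more positive genes. The brightest gene of the list by mean log2 level over all arrays was Cdh15. In siControl cells at day 2 Acta1, Myh3, Tnnt1 and Myog were brighter, with means of 8.69, 8.51, 8.13 and 7.28 against 6.79 for Cdh15. None of the 11 genes of the list lacked a probe well above background, though the Myf5 probe was not tested. How far the extent of differentiation contributed to the day dependence of other members was not tested.

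The interferon response list also had calls among rises blunted. Oas1a, an RNA sensor that activates RNase L, was at -4.10, -5.53 and -5.14 in siControl and -4.36, -5.23 and -5.25 in siBach1 cells at day 0, with 1 array of 3 well above background in each. At day 2 it was at -2.41, -1.44 and -2.49 in siControl cells and at -6.02, -5.00 and -4.37 in siBach1 cells, of which again 1 array was well above background. Only the siControl arrays of day 2 stood above the others, and the day dependence was -2.99 (standard error 0.70, limma adjusted p = 0.041). Ccl5, a chemokine, was at -2.89, -2.97 and -2.67 in siControl and -2.73, -3.24 and -3.88 in siBach1 cells at day 0, and at -0.96, -0.29 and -0.13 and -2.67, -2.54 and -2.44 at day 2. The siRNAs overlapped at day 0 and separated at day 2, and the day dependence was -1.65 (limma adjusted p = 0.043). Of 35 tested genes of the list 2 were called more negative and 0 more positive (5.71%, against 1.74% of all genes). There were 10 more negative and 1 more positive at an unadjusted p under 0.05 in limma, and 25 were below 0. The median was -0.26, and -0.36 to -0.17 over the alternatives. At day 2, 11 genes of this list were called lower with silencing and 0 higher, against 3 lower and 0 higher at day 0. Over all genes 124 were called lower and 287 higher at day 2, and 355 lower and 143 higher at day 0. In the list only Oas1a and Ccl5 differed between the days by the test of the difference, and each of these calls was kept in only 2 of 12 fits with 1 array left out. Usp18, which removes the ubiquitin-like protein made in this response, was at -2.79 (limma adjusted p = 0.0646), and Ifit2 and Cxcl10, lower at both days, were at 0.39 and 0.36.

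**Figure D4:**
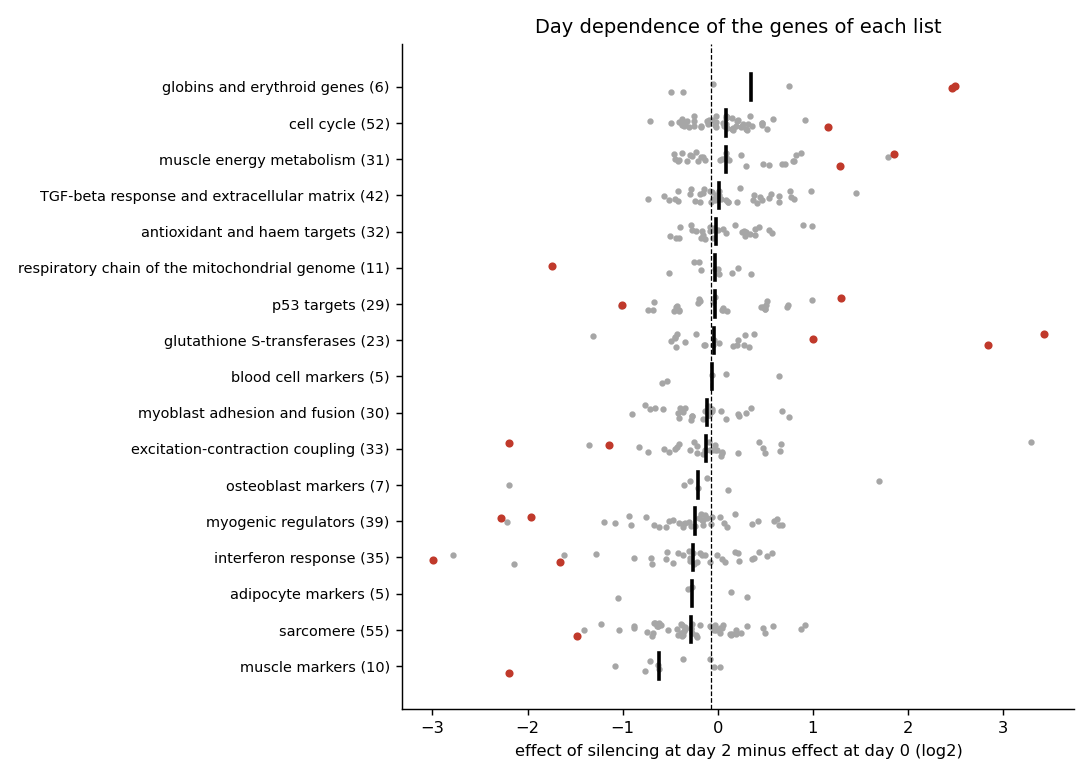
Day dependence (log2) of each tested gene, 1 probe per gene, in the gene lists, with the number of tested genes in brackets, called genes in red, the list's median as a black bar and the median of all genes as a dashed line. The medians lie between -0.62 for the muscle markers and 0.35 for the globins and erythroid genes.

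Among p53 targets 1 of 29 genes was called in each direction (6.9%, against 1.74% of all genes), and the median was -0.03. The unadjusted p in limma was under 0.05 for 10 more positive and 5 more negative genes. Pmaip1, a protein that promotes cell death, rose by 2.42 in siControl and by 1.41 in siBach1 cells, a day dependence of -1.01 (limma adjusted p = 0.0089). It was at 1.17, 1.16 and 1.02 in siControl and 2.34, 2.04 and 2.32 in siBach1 cells at day 0, and at 3.54, 3.45 and 3.61 and 3.73, 3.53 and 3.66 at day 2. The groups were apart at day 0 and overlapped at day 2. Fas, a death receptor, had a day dependence of 1.29 (limma adjusted p = 0.02) on 1 of 3 tested probes, with 0.98 (limma adjusted p = 0.263) and 0.03 on the others. Of 42 genes of the TGF-beta response and extracellular matrix 0 were called in limma and 13 passed an unadjusted p under 0.05, with a median of 0.01.

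Rises enhanced formed the largest class in the fit of the report, though not in every setting. Bglap3 and Bglap2, members of the osteocalcin family with near-identical sequences, had day dependences of 2.14 (limma adjusted p = 0.02) and 2.07 (limma adjusted p = 0.032), of which the Bglap2 call was kept in 4 of 12 fits with 1 array left out. Bglap3 was at -2.10, -2.48 and -2.22 in siControl and -2.30, -2.56 and -2.06 in siBach1 cells at day 0, and at -0.21, 0.37 and -1.0 and 2.03, 1.80 and 1.65 at day 2. The siRNAs overlapped at day 0, and at day 2 the siBach1 arrays were all above the siControl arrays. The day 2 arrays of siControl cells were widely spread, with a standard deviation of 0.69 against 0.19 in siBach1 cells. Among 7 tested osteoblast markers 0 were called in limma, 2 passed an unadjusted p under 0.05, and the median was -0.21. Bglap itself was at 1.69 (limma adjusted p = 0.0682) and Dmp1, a matrix protein of bone, at -2.20 (limma adjusted p = 0.279). The summed signal of the osteoblast list, of which Spp1 was the brightest gene and Ibsp was well above background on 1 array, was 207 to 239 on the day 0 arrays, 147 to 171 in siControl cells at day 2 and 116 to 133 in siBach1 cells at day 2, where the siRNAs did not overlap.

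Hdc, which makes histamine, was at -0.54, -1.01 and -0.84 in siControl and -0.50, -1.33 and -0.88 in siBach1 cells at day 0, and at -0.52, -0.40 and 0.04 and 1.45, 1.53 and 1.73 at day 2. Only the siBach1 arrays of day 2 stood above the others, and the day dependence was 1.97 (standard error 0.31, limma adjusted p = 0.011). On the other Hdc probe it was 1.74 (limma adjusted p = 0.438). The chemokine gene Ccl9 was at -1.69, -1.78 and -2.10 in siControl and -1.99, -2.08 and -2.05 in siBach1 cells at day 0, and at -0.90, -0.28 and -1.13 and 0.76, 0.60 and 1.91 at day 2. All its siControl arrays of day 2 were above the day 0 arrays, and the siBach1 arrays of day 2 were above these, with replicate 3 the highest, and the day dependence was 2.04 (limma adjusted p = 0.034), past the limit in 3 of 12 fits with 1 array left out. Acp5, tartrate-resistant acid phosphatase, rose by 2.21 in siControl and 4.10 in siBach1 cells, a day dependence of 1.89 (limma adjusted p = 0.026). Tceal5, a relative of transcription elongation factors, rose by 4.69 in siControl and 6.59 in siBach1 cells, a day dependence of 1.90 (limma adjusted p = 0.026). Both had overlapping siRNA groups at day 0 and separate groups at day 2, and each call was kept in 5 of 12 fits with 1 array left out.

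Muscle energy genes were also among the rises enhanced. Slc2a4, the insulin-responsive glucose transporter, was at -2.36, -2.78 and -2.71 in siControl and -2.86, -2.80 and -3.22 in siBach1 cells at day 0, and at -0.30, 0.32 and -0.65 and 1.31, 1.52 and 1.08 at day 2. The siBach1 arrays were slightly below the siControl arrays at day 0 and above them at day 2. The day dependence was 1.85 (standard error 0.33, limma adjusted p = 0.017). Lpl, lipoprotein lipase, was at 2.15, 1.95 and 2.03 in siControl and 2.01, 1.80 and 1.93 in siBach1 cells at day 0, and at 1.93, 1.96 and 1.88 and 2.90, 3.07 and 3.26 at day 2 on probe A_51_P259296. Its only separate group was siBach1 at day 2, and 3 of 6 tested Lpl probes were called, with day dependences of 1.28, 1.28 and 1.30. The other Lpl probes gave 0.19, 1.54 and 1.17, with limma adjusted p from 0.181 to 0.7. Pygm, muscle glycogen phosphorylase, rose by 5.35 in siControl and 6.87 in siBach1 cells on a probe that was well above background on 1 of 3 siBach1 arrays at day 0. Its day dependence there was 1.52 (limma adjusted p = 0.048, kept in 2 of 12 fits with 1 array left out), against 0.12 on the brighter probe, where it rose by 3.71 and 3.83. In the muscle energy list 2 of 31 genes were called more positive and 0 more negative (6.45%, against 1.74% of all genes). An unadjusted p under 0.05 in limma was met by 7 more positive and 4 more negative genes. The median was 0.09, which ranged from -0.04 to 0.22 over the alternatives.

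Falls enhanced were the smallest class, and the day changes of 22 of these 44 probes had opposite signs in the siRNAs. Prr9, a proline-rich protein, was at 0.45, 0.65 and 1.13 in siControl and 2.54, 2.64 and 3.40 in siBach1 cells at day 0, and at -2.17, -2.45 and -2.61 and -2.58, -2.33 and -2.97 at day 2. The siBach1 arrays were above the siControl arrays at day 0, and all groups of day 2 were low and overlapped. It changed by -3.16 in siControl and -5.49 in siBach1 cells, a day dependence of -2.33 (standard error 0.37, limma adjusted p = 0.011). Cerox1, a noncoding RNA tied to respiratory complex I, was at -1.63, -1.53 and -1.92 in siControl and -0.99, -0.79 and -1.44 in siBach1 cells at day 0, and at -0.79, -0.89 and -0.56 and -2.42, -2.05 and -2.06 at day 2. Its groups exchanged their order between the days, with a day dependence of -2.05 (limma adjusted p = 0.0058). Cerox1 lies head to head with Sox8, whose day dependence was also negative, and the RefSeq windows of the pair overlap. The Sox8 window, at chr17:25570637-25570936 on the minus strand, is printed for its antioxidant response element core, which the capitals mark 196 bases before the start.

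Sox8: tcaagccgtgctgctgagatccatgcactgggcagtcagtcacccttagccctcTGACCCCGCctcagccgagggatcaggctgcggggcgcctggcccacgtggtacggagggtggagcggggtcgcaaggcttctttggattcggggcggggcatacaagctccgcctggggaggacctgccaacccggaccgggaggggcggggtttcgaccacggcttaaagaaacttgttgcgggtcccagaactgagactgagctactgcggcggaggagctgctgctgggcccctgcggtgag

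ND6, a complex I subunit encoded by the mitochondrial genome, was at 1.08, 1.76 and 1.87 in siControl and 1.29, 0.77 and 1.47 in siBach1 cells at day 0, and at 2.04, 1.71 and 2.08 and -0.22, 0.11 and -0.47 at day 2. The siBach1 arrays of day 2 were below all others, and at day 0 the siRNAs overlapped. Its day dependence was -1.74 (limma adjusted p = 0.025), with replicate sets at -2.46, -0.61 and -2.14. ND6 alone was called among 11 tested genes of the mitochondrial genome (9.09%, against 1.74% of all genes), and 0 were called more positive. In this list 2 more negative and 0 more positive passed an unadjusted p under 0.05 in limma, and the median was -0.03. Lmbr1l, a membrane receptor, had -1.59 (limma adjusted p = 0.0099), and both of its probes were called. Ppp2r2b, a regulatory subunit of protein phosphatase PP2A, was at 0.01, -0.05 and -0.21 in siControl and 0.90, 0.76 and 0.90 in siBach1 cells at day 0, and at -0.42, 0.15 and 0.06 and -0.87, -0.77 and -0.21 at day 2. It was higher with silencing at day 0 and overlapped at day 2, and both probes were called, at -1.49 and -1.40. Acad10, of the acyl-CoA dehydrogenase family, had a silencing effect of 0.84 at day 0 and -0.59 at day 2 and a day dependence of -1.43 (limma adjusted p = 0.011).

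Signal near background set apart some members of every class. Of the 427 members, 277 stood well above background on each of the 12 arrays, 33 on none of the 6 arrays of day 0, 8 on none of the 6 arrays of day 2, and 109 on some arrays of each day. The 33 absent at day 0 were 7 rises blunted and 26 rises enhanced, and the 8 absent at day 2 were 7 falls blunted and 1 falls enhanced. Counting single conditions, 87 members were not well above background on any array of at least 1 condition. Where a group was not well above background, a fold is given as a bound, the brighter group's mean against the mean, over the dim arrays, of the higher of the probe's own signal and the lowest signal among probes well above background.

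**Figure D5:**
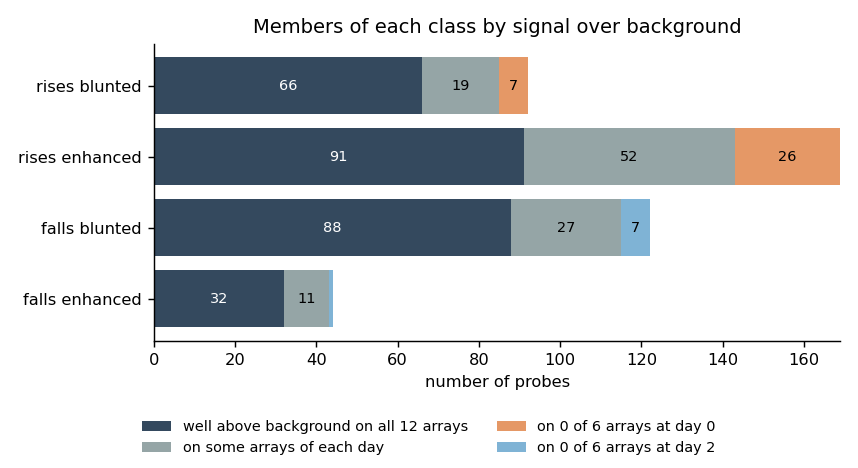
Number of member probes in each class, split into those well above background on all 12 arrays, on some arrays of each day, on 0 of 6 arrays at day 0 and on 0 of 6 arrays at day 2. The groups absent at day 0 lie only among the rises (33 probes), and those absent at day 2 only among the falls (8 probes).

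Synm, synemin, an intermediate filament protein of muscle, had the largest measured difference of those not well above background at day 0. That order rests on signals near background, and the bound on the rise in siBach1 cells was higher for Tmigd3 (11.9-fold) than for Synm (8.46-fold). In siControl cells Synm was at -5.00, -4.99 and -4.78 at day 0 and at -4.68, -4.83 and -5.40 at day 2, when 1 array was well above background. In siBach1 cells it was at -4.94, -4.84 and -5.22 at day 0 and at -1.29, -1.03 and -1.57 at day 2. Only the siBach1 arrays of day 2 were high, at least 8.46-fold above those of day 0, and the day dependence was 3.75 (limma adjusted p = 0.00084). Scg2, a secretogranin, was well above background only on the 3 siBach1 arrays of day 2, at -4.02, -3.93 and -3.41, which was at least 1.66-fold above siControl cells of that day (limma adjusted p of the day dependence = 0.039, kept in 1 of 12 fits with 1 array left out). Tmigd3 was at -1.24, -0.76 and -0.41 in siBach1 and -3.82, -4.31 and -4.42 in siControl cells at day 2, with 1 siControl array well above background. Its rise was at least 11.9-fold in siBach1 cells, with a limma adjusted p of 0.0046 for the day dependence. Mmel1, a membrane metalloendopeptidase, was on the called probe at -3.15, -2.80 and -2.81 in siBach1 cells at day 2, at least 3.04-fold above siControl cells, and this probe was not well above background elsewhere (limma adjusted p of the day dependence = 0.0083). Another Mmel1 probe, well above background on some arrays of each day, gave 1.98 (limma adjusted p = 0.0914).

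Among the members not well above background at day 2, Serpinb2, an inhibitor of plasminogen activators, fell furthest. It was at 0.36, 0.11 and 0.46 in siControl and 0.02, -0.19 and 0.04 in siBach1 cells at day 0, and at -6.31, -6.40 and -5.68 and -5.19, -5.01 and -4.49 at day 2. The day 0 arrays were all far above the day 2 arrays, at least 28.5-fold in siControl and at least 23.2-fold in siBach1 cells, and the silencing effect at day 2 compares signals near background. Rnf125, a ubiquitin ligase, was on the probe chosen by the rule well above background only on the siControl arrays of day 0, at -3.39, -3.61 and -3.45, at least 1.86-fold above siBach1 cells of that day and at least 2.05-fold above siControl cells of day 2. Of its 4 tested probes 2 were called, at 1.89 for this probe and 1.53 for a probe well above background on all 12 arrays, so the gene itself was not absent at day 2. The others gave 1.66 and 1.66. For the probe chosen by the rule the call was kept in 5 of 12 fits with 1 array left out, and the difference was 0.12 at its lowest setting. Defb28, a beta-defensin, fell at least 2.31-fold in siControl and at least 1.90-fold in siBach1 cells, and its call was kept in 1 of 12 fits with 1 array left out. Hao1, a hydroxyacid oxidase, fell at least 2.89-fold in siControl cells, and 1 of 3 siBach1 arrays of day 0 was well above background, with the call kept in 4 of 12 such fits.

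Some of the largest differences fell outside the naming rule because the probe was not well above background on every array, and they are named here after their values were seen. No bounds were made for them. Cpne9, a copine, was well above background on 3 arrays of siBach1 cells at day 2, on 1 array each of siControl cells at day 0 and at day 2, and on 0 of siBach1 cells at day 0 (limma adjusted p = 0.0131). Npr3, the clearance receptor of natriuretic peptides, was at 3.37 (limma adjusted p = 0.00492), with a day change of -2.86 in siControl and 0.51 in siBach1 cells, but its other probe gave -0.17 (limma adjusted p = 0.956). Hpgd, which inactivates prostaglandins, was well above background on all arrays but the 3 of siControl cells at day 2 (limma adjusted p = 0.0165). Crym, a thyroid hormone binding protein, was at 3.18 (limma adjusted p = 0.00895).

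Members with values next to the limits and genes with several probes show how the set was bounded. Rnd1 lay just inside the size limit at 1.00 (limma adjusted p = 0.0358) and Ciao2a just outside it at 1.00 (limma adjusted p = 0.00831), at 0.999446 before rounding. Gm10220 lay just inside the limit of the adjusted p at 0.0497, and Il1rap just outside at 0.0503. Of 168 member genes with more than 1 tested probe, 139 had the same sign on all of them, and 19 had every probe called.

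Markers of other cell types were counted in the same way. Of 5 tested adipocyte markers 0 were called in limma and 0 passed an unadjusted p under 0.05, with a median of -0.27. Pparg was their brightest gene, Adipoq was not well above background on any array, and the summed signal was 5.45 to 7.40 at day 0, 2.57 to 3.86 in siControl and 3.63 to 4.10 in siBach1 cells at day 2. Of 5 tested blood cell markers 0 were called in limma on the brightest probes, 1 passed an unadjusted p under 0.05, and the median was -0.06. Itgam was the brightest of them, Adgre1 was not well above background on any array, and the sum was 18.3 to 22.1 at day 0, 26.5 to 35.4 in siControl and 22.0 to 33.6 in siBach1 cells at day 2. The part of such cells in the result was not tested.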

How the data were processed

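C2C12 myoblast RNA from 4 conditions (siControl or siBach1, day 0 or day 2), 3 arrays each, was measured on Agilent mouse one-colour arrays. Per the file headers, the authors extracted the intensity values with Agilent Feature Extraction 10.7.3.1, while the processing notes name version 9.1. The deposited log2 values were made by the authors as log2 of the raw signal minus the array's 75th percentile and the probe's median. The raw signals in the same deposited table reproduced these values with a largest difference of 0.000338.

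From the scanner files, the log2 processed signal minus each array's 75th percentile was taken, after 76 to 110 outlier spots per array were dropped, which left 52 probes missing on at least 1 array. Of 56605 probes, 29664 entered the tests, those for which some condition had all 3 arrays well above background. A single limma 3.58.1 fit (R 4.3.3) of the 4 conditions without a block gave all contrasts, with Benjamini-Hochberg adjustment across probes, and a call needed an adjusted p under 0.05 and a log2 difference of at least 1 in size. Every adjusted p in the text is from limma. For 6463 probes the unadjusted p of the difference between the days was under 0.05. The contrast was checked on simulated data. Tables and plots used Python 3.11.15, pandas 2.3.3, numpy 2.4.6 and matplotlib 3.10.9.

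A pairing check compared arrays with the same replicate number, and 18 pairs had correlations of 0.142 to 0.595. The same number also means the same slide and slide row. Pairs of replicates 1 and 2, on the same slide but in different rows, were at 0.100 to 0.265, and pairs of replicates 2 and 3, in the same row of different slides, at -0.431 to -0.240. The values were centred on their condition's mean, which lowers the correlations between different numbers. Median standard deviations within groups were 0.139 to 0.167. As a mean signal is missing from the scanner files, the normexp alternative (offset 50) used the median signal.

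The named genes were Gsta2, Mgst2, Casq1, Bach1 and Hmox1, then the 6 largest differences per class on all 12 arrays, 1 probe per gene, the 4 largest on 0 of 6 arrays well above background at each day, both without clone or predicted names (Gm with a number, Rik, LOC or an accession), and the called genes of the gene lists. Others named without a call are genes of those lists given for comparison, chosen after their values were seen. The lists and markers were written with earlier results of these data known. Lists use the brightest tested probe per gene. Promoters came from RefSeq on GRCm38.p6, where 33465 of 37153 accessions matched, 31840 of them with the same symbol.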

Additional observations from a re-analysis of the deposited data

Results flagged for a closer look

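The silencing effect at day 2 differed from that at day 0 for 427 probes by the test of that difference itself, with a limma adjusted p under 0.05 and a size of at least 1. The silencing effect on the Bach1 transcript was -1.77 at day 0 and -1.97 at day 2, and Bach1 protein was not measured on these arrays. The differences below are log2 values of the 50 named probes past these limits, each the effect at day 2 minus that at day 0. With 3 arrays in a group, no single array was tested as an outlier.

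Among rises blunted were Casq1 at -2.19, Spry1 at -2.47, Cdkn1c at -1.96, Igfbp3 at -1.81, Pstpip1 at -1.75, C5ar2 at -1.71, Tspan33 at -1.70, Pmaip1 at -1.01, Sox8 at -2.28, Pdlim3 at -1.48, Ccl5 at -1.65, Oas1a at -2.99 and Pvalb at -1.14. In every condition but siControl cells at day 2, a single array of Oas1a passed the background limit, so the size of its difference is uncertain.

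The rises enhanced included Bglap3 at 2.14, Bglap2 at 2.07, Ccl9 at 2.04, Hdc at 1.97, Tceal5 at 1.90, Acp5 at 1.89, Slc2a4 at 1.85, Lpl at 1.28, Pygm at 1.52, Lpl at 1.28, Fas at 1.29, Lpl at 1.30, Synm at 3.75, Scg2 at 3.70, Tmigd3 at 3.19 and Mmel1 at 2.94. The probes of Synm, Scg2, Tmigd3 and Mmel1 were not well above background on any array of day 0, so the sizes of their differences are uncertain. The day changes of these Lpl probes in siControl cells were -0.12, -0.13 and -0.31.

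Falls blunted comprised Gsta2 at 3.43, Mgst2 at 2.84, Hba-a1 at 2.61, Hba-a2 at 2.50, Stmn4 at 1.99, Fyb2 at 1.98, Gsta4 at 1.00, Cd68 at 1.29, Hba-a1 at 2.47, Cdc45 at 1.16, Jam2 at 1.06, Rnf125 at 1.89, Defb28 at 1.81, Hao1 at 1.60 and Serpinb2 at 1.59. Of these, Hba-a1 with Hba-a2 and Gsta2 with its relatives are near-identical copies, and these probes of Rnf125, Defb28, Hao1 and Serpinb2 were not well above background at day 2, so the sizes of their differences are uncertain. Another called probe of Rnf125 was well above background throughout.

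For falls enhanced the values were Prr9 at -2.33, Cerox1 at -2.05, ND6 at -1.74, Lmbr1l at -1.59, Ppp2r2b at -1.49 and Acad10 at -1.43. Of these, only Prr9 fell in siControl cells, by -3.16. The siControl day changes of the others were 0.95 for Cerox1, 0.78 for Lmbr1l, 0.37 for ND6, 0.28 for Acad10 and 0.01 for Ppp2r2b. For Lmbr1l the larger day change, -0.80 in siBach1 cells, was not past the size limit.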

How the results depend on the processing

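Counts and the sizes of some differences moved between settings. At its lowest setting Defb28 was at 0.06 (from 1.81), Rnf125 at 0.12 (1.89), Hao1 at 0.13 (1.60), Mmel1 at 0.46 (2.94), Scg2 at 0.56 (3.70), Synm at 1.28 (3.75) and Tmigd3 at 1.46 (3.19). Also Serpinb2 went from 1.59 to 0.37, Cd68 from 1.29 to 0.24, Pygm from 1.52 to 0.47, Fyb2 from 1.98 to 0.84, Fas from 1.29 to 0.64, an Lpl probe from 1.30 to 0.70, Oas1a from -2.99 to -1.27, Sox8 from -2.28 to -1.26 and C5ar2 from -1.71 to -1.12. The other named calls stayed within 1.5-fold. The fit of the report called 427 probes (92 rises blunted, 169 rises enhanced, 122 falls blunted, 44 falls enhanced). Among all tested probes, normexp background correction called 205, of which 150 were among the 427, with 65 rises enhanced, 49 falls blunted and 19 falls enhanced. Of the 205, 114 were more positive and 91 more negative, so that the remaining class, rises blunted, was the largest with normexp. The share of more positive differences among the calls was 55.6% there against 68.1%. Without a filter 49 were called (12, 18, 16 and 3 in class order). With only probes well above background on all 12 arrays there were 101 rises enhanced, and with 1 probe per gene 27 falls enhanced. With the replicate number as a block (a paired fit) 628 were called, 262 of them rises enhanced, and all 427 calls, the 50 named included, were kept. With the slide as a block 629 were called, 257 of them rises enhanced. The methods' t-test, unadjusted, called 776 (173, 319, 206 and 78). The adjusted p alone called 1361 (368, 399, 309 and 285), and the size alone 1198 (273, 506, 287 and 132). Sorting by the sign of the siControl day change gave 109 rises enhanced and 22 falls enhanced. Quantile scaling, robust fitting and the authors' values stayed within 1.5-fold in every class. Slide 1 alone, chosen after the data were seen, called 95 (18, 32, 35 and 10). All 50 named differences had the same sign on each slide, but they were called on these same arrays, so this adds no support.

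With 1 array left out, the calls ranged from 246 to 465, rises blunted from 54 to 86, rises enhanced from 86 to 221, falls blunted from 75 to 148 and falls enhanced from 28 to 48. Leaving out siBach1 Day2 replicate 1 gave 246 (54, 86, 78 and 28). Rises enhanced were 110 without siControl Day0 replicate 1 and 106 without siControl Day2 replicate 1. Rises blunted were 57 without siControl Day0 replicate 2, and falls blunted 80 without siBach1 Day0 replicate 2 and 75 without siControl Day0 replicate 3. Of the 50 named calls, 31 stayed under the adjusted p limit with every array left out, and 15 of these also in every other setting with an adjusted p that kept the probe, slide 1 alone left aside, without regard to the size limit. Under that limit fell, with an array left out, Gsta4 at 0.90, Jam2 at 0.96, Cdc45 at 1.00 (0.99911 before rounding) and Pmaip1 at -0.96, and in another setting Jam2 at 0.76, Cdc45 at 0.93, Gsta4 and Pvalb at 0.96 and -0.96, and Pmaip1 at -0.88, besides the values under 1 in size above. The adjusted p limit was met in 1 of 12 such fits for Scg2 and Defb28, in 2 for Oas1a, Ccl5 and Pygm, in 3 for Ccl9 and Stmn4, in 4 for Bglap2 and Hao1, and in 5 for Tceal5, Acp5 and Rnf125. It was met in 6 for Sox8, 7 for ND6, 8 for Serpinb2, 9 for Fas, 10 for Bglap3 and 11 for Cdc45 and Jam2.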
